A study of Mus musculus with 8 samples.

Results

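The genes described here are the CXC chemokines that attract neutrophils and their receptors in mouse wound skin. They were chosen by name, as the ligands Cxcl1, Cxcl2, Cxcl3, Cxcl5 and Ppbp and the receptors Cxcr1 and Cxcr2. All 7 were among the 18540 genes of the count table, and 6 of them passed the filter on low counts that left 15147 genes for testing. The receptor Cxcr1 did not pass. RNA was sequenced from the wound skin of 4 control and 4 treated samples. The sample labels give the treated samples only the word shiyan and a number, and the methods give 15 days of treatment with ZCZ, of which the study made 2 forms. The treated samples were taken to be the form Z1C2Z, and the controls to have received PBS, because a heat map of the study uses the same sample numbers under the names Z1C2Z and CON, so this identity is inferred. Z1C2Z is a particle of CeO2 and ZnO2 in the zinc imidazolate framework ZIF-8, made with the higher of the study's ratios of CeO2 to ZnO2. The numbers in the sample names are 1, 2, 3 and 5 for the controls and 1, 2, 4 and 5 for the treated samples, as in control-1 and Z1C2Z-4, and lists of 4 values follow that order. The study wounded C57BL mice and diabetic db/db mice and placed a pair of wounds on each animal, but the sources used here do not say which strain, and so which age of mice, was sequenced or whether samples shared a mouse. The p-values therefore measure the spread between these samples, which may not be separate animals. Each library held 28856790 to 38974888 counts.

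CXC chemokines of this family carry a glutamate-leucine-arginine motif ahead of their first cysteines and act on CXCR2, a G protein-coupled receptor of neutrophils. Epithelial cells, fibroblasts, endothelial cells and macrophages make them after injury, when interleukin 1, tumour necrosis factor or interleukin 17 switch on NF-kappa B and its partners. Ppbp differs in its source, since platelets store its product and release it on clotting. Neutrophils that follow the gradient clear microbes from a fresh wound, and a long stay of these cells is known from wounds that heal slowly.

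The ligand genes lie side by side. In RefSeq, Cxcl5, Ppbp, Pf4, Cxcl3, Cxcl15, Cxcl1 and Cxcl2 are consecutive protein-coding genes of chromosome 5, and Cxcr2 and Cxcr1 are neighbours on chromosome 1. The stretches before the starts of Cxcl1, Cxcl2 and Cxcl3 are shown because these genes share a promoter motif. Over the samples, Cxcl1 tracked Cxcl2 and Cxcl3 less closely than these tracked each other. Capitals mark matches, on either strand, to a form of the site bound by NF-kappa B, which reads GGG, then 2 bases of any kind, then TTTCC. Each stretch runs 5′ to 3′ from base -120 to base -1 relative to the RefSeq start. The build of the count table is not given in the sources used here, so these coordinates belong to RefSeq only.
Cxcl1 (GRCm38.p6, chr5:90891125-90891244, plus strand): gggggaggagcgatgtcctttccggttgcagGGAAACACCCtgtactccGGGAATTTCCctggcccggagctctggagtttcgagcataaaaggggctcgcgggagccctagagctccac
Cxcl2 (GRCm38.p6, chr5:90903779-90903898, plus strand): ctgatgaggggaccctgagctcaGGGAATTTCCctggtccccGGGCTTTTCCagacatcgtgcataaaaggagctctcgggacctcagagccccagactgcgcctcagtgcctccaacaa
Cxcl3 (GRCm38.p6, chr5:90785981-90786100, plus strand): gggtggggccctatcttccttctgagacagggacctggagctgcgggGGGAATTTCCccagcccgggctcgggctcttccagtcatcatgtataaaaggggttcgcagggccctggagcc

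The motif was searched in the 250 bases before each start, where 464 of 32851 RefSeq promoters (1.41%) held at least 1 match. Cxcl1 held a match on the coding strand at -71 to -62 and another on the opposite strand at -89 to -80, which do not overlap. Cxcl2 held matches at -97 to -88 and at -78 to -69, and Cxcl3 held 1 at -73 to -64. At least 2 matches occurred in 8 promoters of the table (0.0244%). The first coding-strand match had the same letters, GGGAATTTCC, in all 3 genes. When the 30 bases centred on that match were aligned without gaps, Cxcl1 and Cxcl2 shared 23 bases, Cxcl1 and Cxcl3 shared 19, and Cxcl2 and Cxcl3 shared 17. The windows of Ppbp, Cxcr1 and Cxcr2 held no match to these letters. Cxcl5 was not in the promoter table.

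Cxcl1 and Cxcl5, both ligands, fell in the Z1C2Z group, and no gene of the family rose. Cxcl1 averaged 146 ± 160 CPM in the controls and 2.77 ± 0.583 CPM in the treated samples, and Cxcl5 averaged 172 ± 111 CPM and 14.1 ± 8.01 CPM (SD, n = 4 each). CPM here are counts scaled to the library size after adjustment by the TMM method. A gene was called where edgeR's quasi-likelihood test gave an adjusted p under 0.05 and the log2 fold change was beyond 1 in either direction. Of the 6 members tested, 2 were called lower and 0 higher, where 1.25% of all genes tested were called lower and 2.15% higher. The median log2 fold change of the 6 members was -1.45 and that of all genes tested was 0.0086. These are values of bulk tissue, in which fewer cells of a type and less RNA per cell cannot be told apart.

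**Figure D1:**
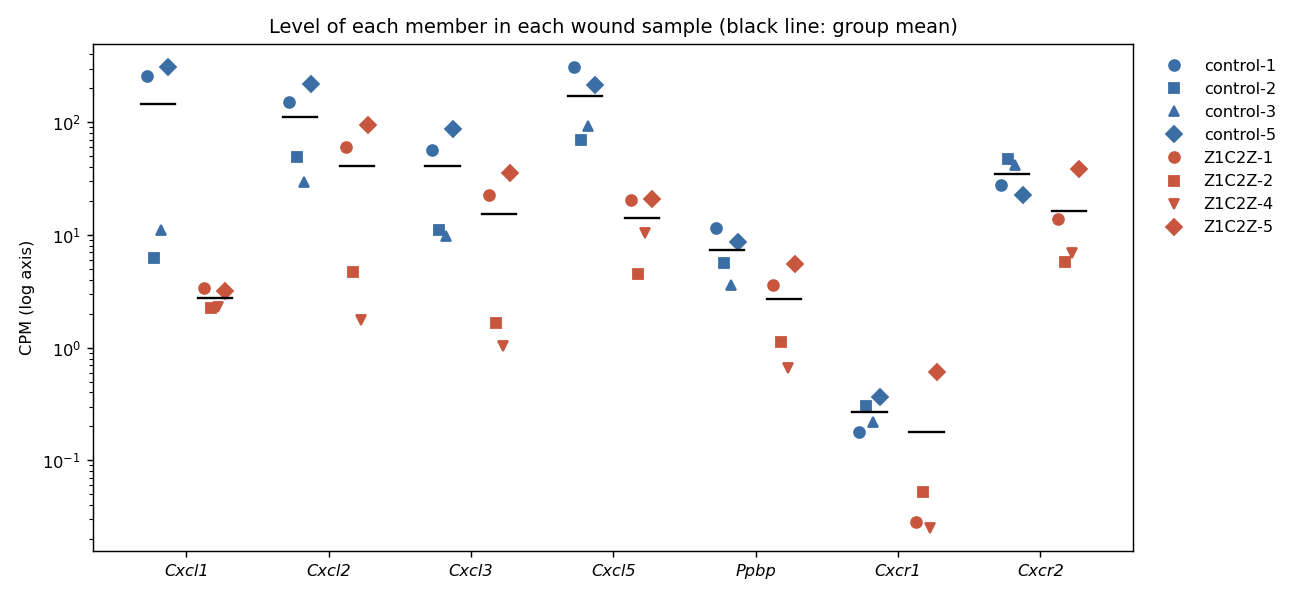
Level of each gene (CPM, log axis) in the 4 control samples (blue) and the 4 Z1C2Z samples (red), with a marker shape for each sample and a black line at the group mean. For Cxcl1 and Cxcl5 all red points lie below all blue points, and control-1 and control-5 stand above control-2 and control-3 for Cxcl1, Cxcl2, Cxcl3, Cxcl5 and Ppbp but below them for Cxcr2.

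Cxcl1 (Entrez 14825), the keratinocyte-derived chemokine, had 7232, 224, 404 and 10977 counts in the controls. It had 119, 87, 91 and 115 counts in the treated samples. In CPM, the controls lay at 257, 6.22, 11.1 and 309, and the treated samples between 2.25 and 3.36. The groups did not overlap, but the controls split into a high and a low pair, and the lowest control was 1.85 times the highest treated sample. The highest control was 49.7 times the lowest, whereas the treated samples spanned a ratio of 1.49. The log2 fold change was -5.72 (standard error 1.25, 95% interval -8.53 to -2.91, edgeR adjusted p = 0.0337). An exact two-sided permutation test of the mean log2 CPM gave p = 0.0286, the smallest value that 70 arrangements allow, and 0.1 after adjustment over the 7 genes.

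Cxcl5 (Entrez 20311), a chemokine of epithelial and stromal cells, had 8707, 2526, 3397 and 7611 counts in the controls and 730, 174, 415 and 750 counts in the treated samples. The controls lay at 309, 70.1, 93.6 and 214 CPM and the treated samples at 20.6, 4.51, 10.4 and 20.8 CPM. Here too the groups did not overlap, with a wider gap, since the lowest control was 3.37 times the highest treated sample. The log2 fold change was -3.61 (standard error 0.614, 95% interval -5.00 to -2.23, edgeR adjusted p = 0.0299). The exact permutation p was again 0.0286, and 0.1 after adjustment over the 7 genes. All treated values below all control values, as for these 2 members, occurred in 8.82% of all genes tested.

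Both calls were kept without control-1, control-2, control-3 or Z1C2Z-5, and both were lost in the other 4 fits with 1 sample left out. With control-5 left out, or any treated sample other than Z1C2Z-5, edgeR's adjusted p was between 0.0754 and 0.107 for Cxcl1 and between 0.0661 and 0.0888 for Cxcl5, and no gene of the whole table was called in these 4 fits, although between 3100 and 4208 genes had an unadjusted p under 0.05. Without any 1 sample, the log2 fold change stayed between -6.12 and -5.02 for Cxcl1 and between -3.87 and -3.17 for Cxcl5.

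Cxcl2 and Cxcl3, close relatives of Cxcl1 that macrophages and neutrophils also make, overlapped between the groups. Cxcl2 (Entrez 20310) had 4265, 1787, 1066 and 7768 counts in the controls and 2159, 180, 70 and 3415 counts in the treated samples. This is 152, 49.6, 29.4 and 219 CPM against 60.9, 4.66, 1.76 and 94.7 CPM. Z1C2Z-1 and Z1C2Z-5 lay above control-2 and control-3, so the groups overlapped, while Z1C2Z-2 and Z1C2Z-4 lay below all controls. The log2 fold change was -1.47 (95% interval -3.94 to 0.99, edgeR adjusted p = 0.408).

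Cxcl3 (Entrez 330122) had 1586, 400, 355 and 3078 counts in the controls and 806, 64, 41 and 1278 counts in the treated samples. The values were 56.4, 11.1, 9.78 and 86.7 CPM against 22.7, 1.66, 1.03 and 35.4 CPM. The samples stood in the same order as for Cxcl2, from Z1C2Z-4 at the bottom to control-5 at the top. The log2 fold change was -1.43 (95% interval -3.89 to 1.03, edgeR adjusted p = 0.421). These intervals include both no change and falls as large as that of Cxcl5.

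Ppbp (Entrez 57349), the gene of pro-platelet basic protein, had 322, 204, 130 and 306 counts in the controls and 127, 43, 26 and 200 counts in the treated samples. Its level was 11.4, 5.66, 3.58 and 8.62 CPM against 3.58, 1.11, 0.653 and 5.55 CPM, and the groups overlapped through Z1C2Z-1 and Z1C2Z-5. The log2 fold change was -1.43 (95% interval -2.84 to -0.01, edgeR unadjusted p = 0.0481 and adjusted p = 0.174). Pf4, the neighbouring gene of platelet factor 4, differed by -0.99 on the log2 scale (edgeR adjusted p = 0.0648). It had 95.71, 59.97, 49.83 and 96.44 CPM in the controls and 43.15, 31.89, 24.03 and 53.15 CPM in the treated samples. As for Ppbp, control-1 and control-5 were the highest samples and Z1C2Z-4 the lowest. Among the 12 platelet markers listed, 5 passed the filter, 0 were called and their median log2 fold change was -0.18. Gp9 and Gp6, which encode platelet surface glycoproteins, had at most 5 counts in any sample. The mean log2 CPM of the platelet markers weighs the 5 tested genes equally. Among them are Pf4, the most abundant, and Gp5, with 1 to 9 counts in the controls and a log2 fold change of 2.30. Over the 8 samples, Ppbp and this mean had a Pearson r of -0.17, and Ppbp and Cxcl2 had an r of 0.975. Such correlations describe samples of 2 groups that share their libraries and are given without a test.

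**Figure D2:**
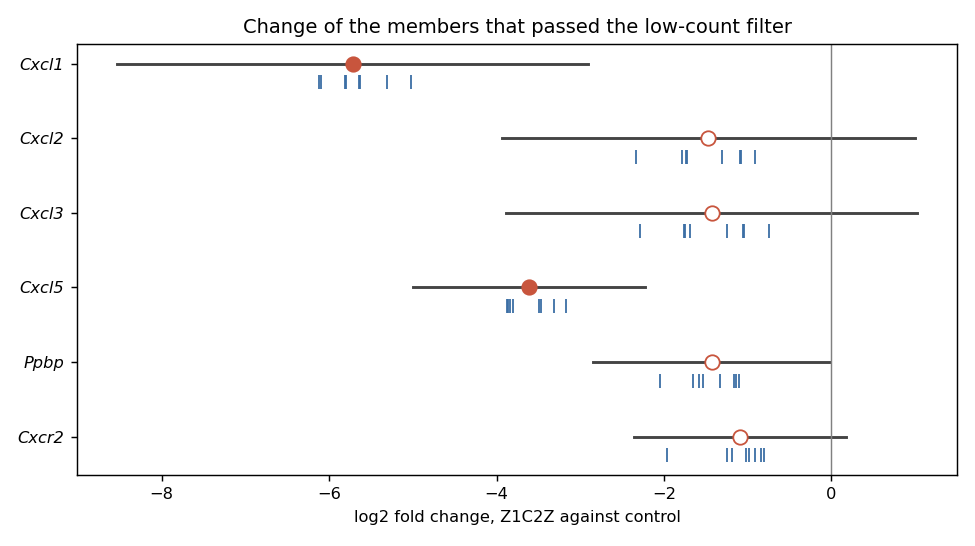
Log2 fold change of the Z1C2Z group against the control group for the 6 genes that passed the low-count filter. Circles are the estimates over all 8 samples, filled where the gene was called, lines their 95% intervals, and blue ticks the estimates with 1 sample left out. The intervals of Cxcl1 and Cxcl5 lie below -2, those of Cxcl2, Cxcl3 and Cxcr2 include 0, and all ticks lie below 0.

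The receptor Cxcr2 (Entrez 12765), the shared receptor of these ligands on neutrophils, had 785, 1688, 1508 and 799 counts in the controls and 494, 222, 278 and 1397 counts in the treated samples. In CPM this was 27.9, 46.8, 41.5 and 22.5 against 13.9, 5.75, 6.98 and 38.7. Control-2 and control-3, the controls with the least Cxcl1, had the most Cxcr2, and Z1C2Z-5 lay within the range of the controls. The log2 fold change was -1.09 (95% interval -2.35 to 0.18, edgeR adjusted p = 0.240). Without Z1C2Z-5 it was -1.97 with an adjusted p of 0.0181 in edgeR, so that 1 library decided this call.

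Cxcr1 (Entrez 227288), a receptor related to Cxcr2, was close to the limit of detection, with 5, 11, 8 and 13 counts in the controls and 1, 2, 1 and 22 counts in the treated samples. Its highest value, 0.610 CPM, was in Z1C2Z-5, the treated sample with the most Cxcr2. The exact permutation p was 0.171. Treated samples other than Z1C2Z-5 lay below all controls, so the groups overlapped only through that library. No difference between the groups was shown, and at counts this low no fold change is given.

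Every pair of ligands was positively correlated over the samples, some more closely than others. Pearson's r of log2 CPM over the 8 samples was 0.989 for Cxcl2 and Cxcl3, 0.950 for Cxcl3 and Ppbp and 0.887 for Cxcl1 and Cxcl5. The lowest among the ligands was 0.684, for Cxcl1 and Cxcl2. Cxcl1 and the receptor Cxcr2 had an r of 0.359. The log2 ratio of Cxcl2 to Cxcl3 within a sample stayed between 0.741 and 2.15. The log2 ratio of Cxcl1 to Cxcl2 ranged from -4.87 to 0.762. Z1C2Z-1 and Z1C2Z-5 had Cxcl2 levels above those of control-2 and control-3 with less Cxcl1 than either.

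**Figure D3:**
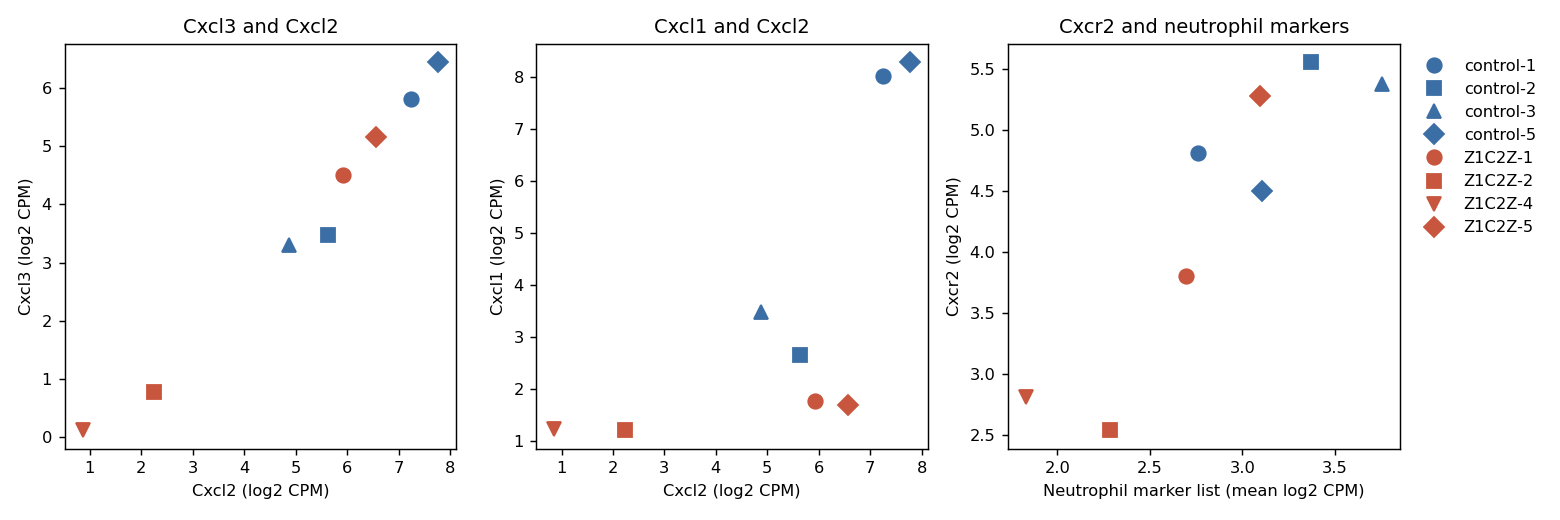
Log2 CPM of each sample for Cxcl3 against Cxcl2, Cxcl1 against Cxcl2, and Cxcr2 against the mean log2 CPM of the neutrophil markers, with control samples in blue and Z1C2Z samples in red. The first panel is close to a line, while in the second Z1C2Z-1 and Z1C2Z-5 have high Cxcl2 and low Cxcl1.

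Whether any pair of genes changed by different amounts was tested on the log2 ratio of the pair within each sample, for 15 pairs. None had an adjusted exact permutation p under 0.05, and 1 reached the smallest p that the design allows. This was Cxcl5 against Cxcr2, with a mean log2 ratio of 2.12 ± 1.46 (SD, n = 4) in the controls and -0.03 ± 0.722 (SD, n = 4) in the Z1C2Z group, a difference of -2.14 (exact permutation p = 0.0286, adjusted p = 0.429). For Cxcl1 against Cxcl2 the difference was -1.64 (exact permutation p = 0.286, adjusted p = 0.524). Since a pair alone at the smallest p had an adjusted p of 0.429, this test could hardly pass the threshold over 15 pairs. It cannot decide whether genes changed by different amounts. That Cxcl1 and Cxcl5 passed the threshold and the other members did not is not shown to be a difference between the genes.

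To compare levels between ligands, CPM were divided by exon length in kb, taken from GENCODE for the protein-coding transcripts. The sum of the 5 ligands was 614, 93.9, 99.8 and 672 CPM per kb in the controls and 75.0, 10.4, 11.6 and 108 CPM per kb in the treated samples. Z1C2Z-5 thus lay above control-2 and control-3 on this length basis. Cxcl1 was the highest ligand per kb in control-1 and control-5, Cxcl5 in control-2, control-3, Z1C2Z-2 and Z1C2Z-4, and Cxcl2 in Z1C2Z-1 and Z1C2Z-5. With exons of all annotated transcripts, Cxcl5 was the highest in control-1 and the other 7 samples kept their highest ligand. The sum in Z1C2Z-5 was then 73.9 CPM per kb, between control-2 at 73.3 and control-3 at 76.5. The share of Cxcl1 in the sum was 6.95% to 48.3% in the controls and 3.11% to 22.8% in the treated samples, and that of Cxcl5 was 20.3% to 59.5% and 12.3% to 57.2%. Ppbp made up at most 9.89% in any sample.

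**Figure D4:**
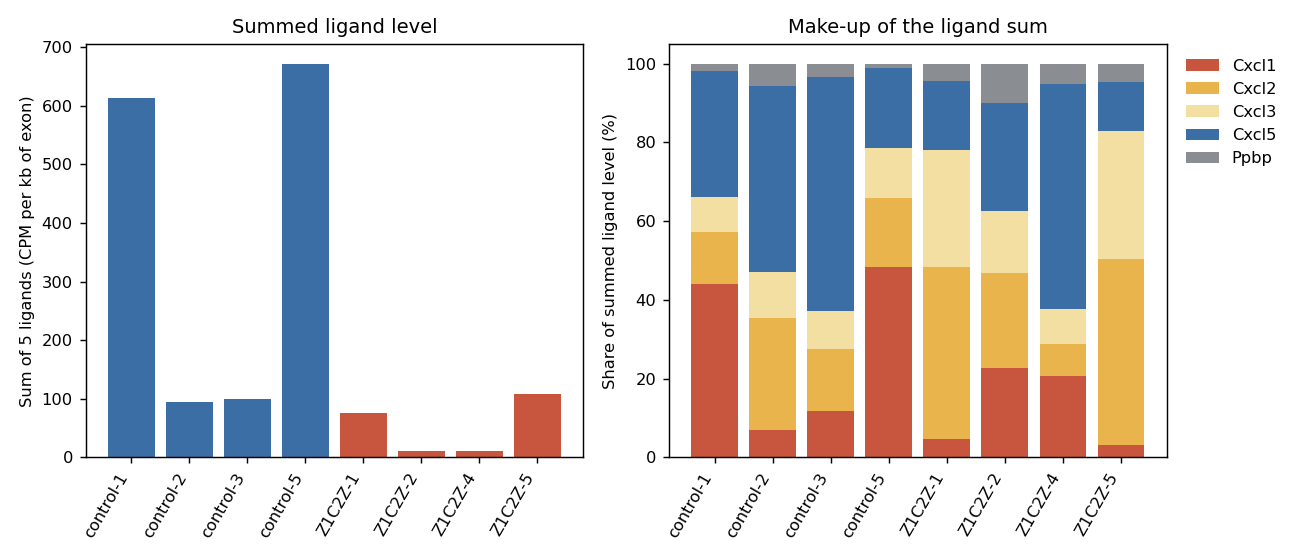
Left, sum of the 5 ligands in each sample in CPM per kb of exon (control samples blue, Z1C2Z samples red). Right, share of each ligand in that sum in percent, in which Cxcl1 takes its largest shares in control-1 and control-5 and Cxcl2 its largest shares in Z1C2Z-1 and Z1C2Z-5.

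The genes whose log2 CPM was most like that of Cxcl1 over the 8 samples were Rnd1, Azin1, Tnfaip3, Depdc5, Il6, Atp6ap1, Ly6m, Uap1, Fosl2 and Tnfsf9, with Pearson r between 0.981 and 0.994. Il6, the gene of interleukin 6, had 174, 5.19, 7.49 and 150 CPM in the controls and between 0.728 and 3.47 CPM in the treated samples, with the same high and low pairs of controls as Cxcl1. Its log2 fold change was -5.51 (edgeR adjusted p = 0.0356). Tnfaip3, which encodes the NF-kappa B inhibitor A20, had 87.0, 23.4, 33.4 and 123 CPM in the controls and between 17.8 and 23.1 CPM in the treated samples. It narrowly missed the threshold, with a log2 fold change of -1.73 and an edgeR adjusted p of 0.0529. For Cxcr2 the most alike genes were Mrgprf, Slc4a4, Slfn5, Nlrp12 and Rragc, with r between 0.965 and 0.979, and none of these was called.

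The list of inducing cytokines and their receptors, which also holds the antagonist gene Il1rn, had 1 called gene among 18 tested. Il1r1, the signalling receptor of interleukin 1, fell from 209 ± 43.9 to 86.5 ± 23.7 CPM (SD, n = 4 each), with no overlap (log2 fold change -1.28, edgeR adjusted p = 0.0299). The median of the list was -0.42, and 16 of the 18 genes had a log2 fold change under 0. Without overlap, 9 of them were lower, where 8.82% of all genes tested were. Il17a and Il17f, the genes of the interleukins 17A and 17F, did not pass the filter, with at most 17 counts in any sample.

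In the relay of NF-kappa B and interleukin 17 signals, 2 of 17 genes were called lower and 0 higher, and the median log2 fold change was -0.49. Nfkbiz, whose product I kappa B zeta helps to switch on a subset of NF-kappa B targets, fell from 97.2 ± 33.2 to 46.9 ± 9.44 CPM (SD, n = 4 each), with an edgeR adjusted p of 0.0348. Cebpd, a transcription factor of acute inflammation, fell from 29.5 ± 11.3 to 11.8 ± 3.27 CPM (SD, n = 4 each), with an edgeR adjusted p of 0.0348. Control-5 held the highest value of both genes, and neither overlapped between the groups. Of the 8 regulators of mRNA stability, 0 were called, with a median log2 fold change of -0.25. Zfp36l1 and Zfp36l2, whose products speed the decay of AU-rich messages, were about equally abundant. Zfp36l1 differed by -0.09 on the log2 scale (edgeR adjusted p = 0.670). Zfp36l2 fell by 0.40 on the log2 scale (edgeR adjusted p = 0.0348) and Arid5a, whose product stabilises inflammatory messages, fell by 0.96 (edgeR adjusted p = 0.0350), both without overlap and short of the fold change limit.

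**Figure D5:**
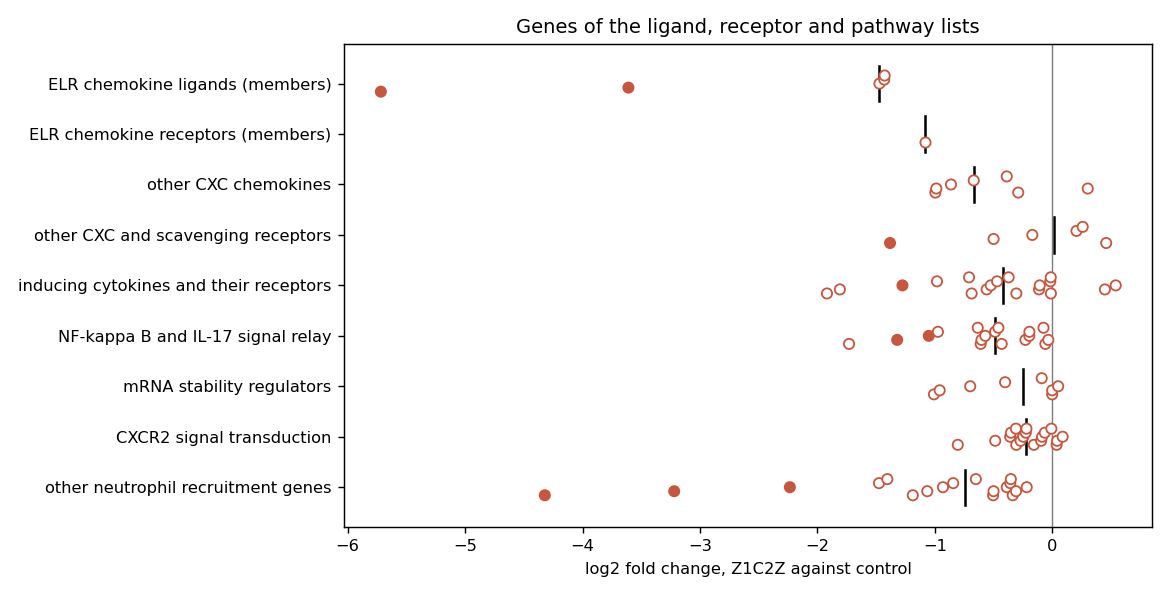
Log2 fold changes of the Z1C2Z group against the control group for the tested genes of each list. Filled circles are called genes and black bars are list medians, and the called genes of every list shown lie below 0.

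Other genes of neutrophil recruitment had 3 called lower and 0 higher among 18 tested, with a median log2 fold change of -0.75. Csf3, the granulocyte colony-stimulating factor gene, had 16.3, 1.17, 1.35 and 22.3 CPM in the controls and 0.874, 0.233, 0.0753 and 0.887 CPM in the treated samples. Control-1 and control-5 were again far above control-2 and control-3. On the log2 scale it fell by 4.32 ± 1.12 (standard error, n = 4 each), with an edgeR adjusted p of 0.0484. The endothelial selectins, which slow neutrophils on the vessel wall, also fell. Sele went from 22.7 ± 10.9 to 2.45 ± 2.20 CPM (SD, n = 4 each; log2 fold change -3.22, edgeR adjusted p = 0.0303). Selp went from 53.6 ± 25.8 to 11.4 ± 6.60 CPM (SD, n = 4 each; log2 fold change -2.24, edgeR adjusted p = 0.0319). Csf2, named after its values were seen, did not pass the filter, and had 507, 0, 7 and 276 counts in the controls and between 1 and 8 counts in the treated samples. Beside the selectins stand the endothelial markers, of which 0 of 6 were called with a median log2 fold change of -0.71 and a summed level of 316 to 840 CPM in the controls and 276 to 522 CPM in the treated samples. Their part in the fall of the selectins was not tested.

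Among the other CXC chemokines 0 of 7 tested were called, with a median of -0.67. Cxcl12, the most abundant of them and a ligand of Cxcr4, had 295 ± 90.4 CPM in the controls and 225 ± 19.9 CPM in the treated samples (SD, n = 4 each; edgeR adjusted p = 0.241). Among the other CXC and scavenging receptors 1 of 6 was called lower. This was Ackr3, a receptor that removes Cxcl12, which fell from 119 ± 42.4 to 45.5 ± 8.60 CPM (SD, n = 4 each; log2 fold change -1.38, edgeR adjusted p = 0.0299). The median of these receptors was 0.02. Of the 18 tested genes that carry the CXCR2 signal, 0 were called, and their median was -0.22. Gnai3, an inhibitory G protein subunit and the most abundant of them, had between 350 and 431 CPM in the controls and between 338 and 369 CPM in the treated samples.

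Of 18 neutrophil markers tested, 14 had a log2 fold change under 0, 1 was called lower and 1 higher, and their median was -0.87. The abundant alarmin genes S100a8 and S100a9 had log2 fold changes of -1.27 and -1.36 (edgeR adjusted p = 0.0804 and 0.0795). Csf3r, the receptor gene of granulocyte colony-stimulating factor, had one of -1.19 (edgeR adjusted p = 0.176), and Trem1 and Cd177, both surface proteins of neutrophils, had -2.10 each (edgeR adjusted p = 0.145 and 0.0819), Trem1 without overlap. Lcn2, the gene of lipocalin 2, which keratinocytes also make, fell from 39.8 ± 21.9 to 8.80 ± 3.21 CPM (SD, n = 4 each; log2 fold change -2.18, edgeR adjusted p = 0.0303). Padi4, an enzyme that citrullinates histones, rose from 8.18 ± 1.58 to 20.3 ± 4.78 CPM (SD, n = 4 each; log2 fold change 1.31, edgeR adjusted p = 0.0299). Asprv1, Camp and G0s2 also had log2 fold changes above 0, at 0.35, 0.38 and 0.53, without a call. That of Stfa2l1 was -0.05. Of the same list, Ly6g and Elane had at most 6 and 2 counts in any sample, and Mpo at most 19. The summed level of the list was 1374 to 2225 CPM in the controls and 1099 to 1380 CPM in the treated samples, of which Asprv1, a protease gene that the epidermis also expresses, made up 485 to 618 CPM and 574 to 835 CPM. Cxcr2 and the mean log2 CPM of the neutrophil markers had a Pearson r of 0.894 over the 8 samples, and Cxcr2 and the macrophage markers one of 0.876.

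Other cell types were set beside the ligands. Keratinocyte markers (0 of 7 called, median log2 fold change 0.11) had a Pearson r of -0.118 with Cxcl1 over the 8 samples. None of 11 macrophage, 7 mast cell, 6 T cell and 6 fibroblast markers was called, with medians of -0.37, -0.24, 0.22 and -0.55. The most abundant of each list were Lyz2 (edgeR adjusted p = 0.391), Mcpt4 (0.504), Cd4 (0.443) and Col3a1 (0.119), and Krt10 (0.257) among the keratinocyte genes.

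Hair follicle genes moved with the groups. Of 13 markers, 12 were called higher, with a median log2 fold change of 2.62. Those with the smallest p were Msx2, Krt28, Krt35 and Foxn1, with log2 fold changes of 2.09, 2.33, 2.47 and 2.27. The summed level was 674, 2374, 3707 and 615 CPM in the controls and 9358, 16330, 15780 and 4541 CPM in the treated samples. Control-1 and control-5, the controls with the most Cxcl1, had the least hair follicle RNA, and Z1C2Z-2 and Z1C2Z-4, the treated samples with the least Cxcl2, had the most. Its part in the fall of Cxcl1 and Cxcl5 was not tested.

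Skeletal muscle genes were not called (0 of 14, median -0.50), and their summed level was 4349 to 8373 CPM in the controls and 3859 to 4223 CPM in the treated samples. Acta1, the most abundant, differed by -0.86 on the log2 scale (edgeR adjusted p = 0.0303), short of the fold change limit. With the mean log2 CPM of these genes as a covariate, the log2 fold change of Cxcl1 was -2.81 (edgeR adjusted p = 0.244) and that of Cxcl5 was -2.55 (adjusted p = 0.0738), and 0 members were called, with 1 at an unadjusted p under 0.05. This mean was 8.871, 8.045, 7.83 and 8.273 in the controls and 7.817, 7.773, 7.813 and 7.68 in the treated samples. The groups did not overlap in this mean, but only narrowly, with 7.83 in control-3 and 7.817 in Z1C2Z-1. Control-1 and control-5, the controls with the most Cxcl1, also had the highest means. Muscle content thus went partly with the groups and partly with the spread among the controls. Its part in the fall of Cxcl1 and Cxcl5 was not tested.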

How the data were processed

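Wound skin RNA of 4 controls and of 4 treated samples, inferred to be Z1C2Z, was sequenced by a service company after depletion of ribosomal RNA and dUTP second-strand synthesis. For 18540 genes, the authors deposited read counts as counted, without normalization, and the table held 0 unused columns of per-sample values. The aligner, counting program, genome build, annotation and strand setting are not given in the sources used here. Any reads shared by related genes such as Cxcl1, Cxcl2 and Cxcl3 could therefore have been split in an unknown way. Labels name Trizol and the methods name a column kit for extraction. Totals of 28856790 to 38974888 counts per sample leave genes with around 10 counts, such as Cxcr1, with a large counting error.

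With edgeR 4.0.16 in R 4.3.3, counts were filtered by filterByExpr (15147 genes), normalized by TMM and tested with the quasi-likelihood test without covariates, with Benjamini-Hochberg adjustment over all genes tested. Log2 CPM used a prior count of 2. Standard errors came from the quasi-likelihood F statistic. Single genes and ratios were tested by exact two-sided permutation over 70 arrangements in scipy 1.17.1. The steps were tested on simulated data. Sequences came from RefSeq (GRCm38.p6), which held 6 of the 7 promoters, and exon lengths from GENCODE M21 by symbol. The protein-coding transcripts were taken for length after values with all transcripts had been seen.

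The text names the 7 members, up to 4 called genes of each list by smallest p, the most abundant gene of lists without a call, and the 10 and 5 genes most like Cxcl1 and Cxcr2. Exceptions, chosen after their values were seen, are Csf2, Zfp36l2, Arid5a and further neutrophil, platelet and interleukin 17 genes. The members and lists were chosen with earlier results of these data known. Cxcl11, Ackr1 and Trac had no row under these symbols. Alternatives were DESeq2 1.42.0, RLE size factors, other low-count filters, other call rules, the sample number as a replicate block, a skeletal muscle score as covariate and each of the 8 samples left out.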

Additional observations from a re-analysis of the deposited data

Results flagged for a closer look

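Cxcr1 in Z1C2Z-5 stood apart from the other treated samples, at 0.610 CPM against 0.0251 to 0.0518 CPM. Its gap to the nearest sample was 0.954 of the range of the group, above Dixon's 95% critical value for 4 samples. This is 22 counts against 1 or 2, and 14 groups of 4 samples were tested, of which chance would mark about 1 in 20.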

How the results depend on the processing

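Of the 6 genes that passed the filter, none changed direction under any of the alternatives run. Cxcr1, which did not pass, was fitted only in some of them. The 2 calls, Cxcl1 and Cxcl5, were kept with DESeq2 (adjusted p = 2.41e-05 and 4.66e-06), RLE size factors and both other low-count filters. They fell to 0 with the skeletal muscle covariate, whose values narrowly did not overlap between the groups. With 1 sample left out, between 0 and 3 members were called lower, the third being Cxcr2 without Z1C2Z-5. With the sample number as a replicate block there were also 2 calls, but of Cxcl5 (edgeR adjusted p = 0.00105) and Cxcl3 (0.0283), while Cxcl1 had 0.0620. The numbers 1, 2 and 5 occur in both groups. Across genes, the centred log2 CPM of a control and a treated sample with the same number correlated at -0.101, -0.0623 and 0.323. Samples with unlike numbers correlated at -0.409 to 0.387, so these values do not decide whether the numbers pair the samples. The labels give only 2 groups, so the main fit had no block. For all genes, the counts of 189 lower and 326 higher became 345 and 490 with DESeq2, 60 and 18 with the muscle covariate, 583 and 648 without the fold change limit, and 409 and 496 with an unadjusted p. They lay between 0 and 316 lower and between 0 and 463 higher with 1 sample left out, and fell to 76 and 8 without control-2. The log2 ratio of Cxcl1 to Cxcl5 per kb in control-1 went from 0.46 to -0.28 with exons of all transcripts, an alternative added after seeing the data. The causes were not tested.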
